A study of Rattus norvegicus with 6 samples.

Results

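Transcripts of 9 genes of glucose use and its vascular signal were followed in GH3 cells, a rat pituitary tumour line that makes growth hormone and prolactin. The genes are Gapdh (ENSRNOG00000018630), Ldha (ENSRNOG00000013009), Pkm (ENSRNOG00000011329), Eno1 (ENSRNOG00000017895), Tpi1 (ENSRNOG00000015290), Pgk1 (ENSRNOG00000058249), Hk2 (ENSRNOG00000006116), Slc2a1 (ENSRNOG00000007284) and Vegfa (ENSRNOG00000019598). They were chosen by Ensembl gene identifier, and 9 of 9 identifiers were present among the 18413 genes of the count table. The deposited tables hold identifiers without symbols, and no reference table used here pairs them, so each symbol is the one stated for its identifier when the genes were chosen. The study compared 3 control libraries with 3 libraries made after exposure to thyrotropin-releasing hormone (TRH) at 100 nM. All cells were wild-type GH3 cells in medium with horse and fetal bovine serum. The sources used here do not state how long the hormone was present or whether controls received a vehicle. Nothing in the labels says whether replicates were separate cultures, and the p-values below cover only the spread among these samples, which may be technical. They rest on 1 tumour cell line, and markers of pituitary cell types are not analysed here.

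Glycolysis splits glucose into pyruvate and yields ATP without oxygen. Glucose enters through the transporter Slc2a1 (GLUT1), is trapped as glucose 6-phosphate by hexokinase (Hk2), and passes through triosephosphate isomerase (Tpi1), glyceraldehyde-3-phosphate dehydrogenase (Gapdh), phosphoglycerate kinase (Pgk1), enolase (Eno1) and pyruvate kinase (Pkm). Lactate dehydrogenase A (Ldha) turns pyruvate into lactate and returns the NAD+ that Gapdh consumes, and Vegfa encodes a secreted growth factor for blood vessels. These genes are textbook targets of the hypoxia-inducible factors, and rapidly growing tumour cells in culture commonly express them at high levels. TRH acts on pituitary cells through a receptor coupled to Gq, phospholipase C, calcium and protein kinase C.

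The libraries held 43504159 to 52134239 counts, of which the 9 genes took 0.820% to 0.972%. Libraries of the same treatment differed in the balance of long and short genes. The median log2 deviation of the longest of 5 equal length groups minus that of the shortest reached 0.37 in the first control and -0.44 in the third TRH library; the other 4 lay within -0.17 to 0.15. Fold changes are also given with libraries left out. Overlap between groups, length-group medians, counts of intervals and correlations are given with all libraries only.

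The enzymes of the lower part of glycolysis were among the most abundant messages of the cell, and the entry steps were far lower. Levels between genes are compared in the authors' TPM, a unit that divides counts by the deposited gene length and scales every library to one total. Gapdh had 4456 ± 307 TPM in controls and 4004 ± 222 TPM with TRH (SD, n = 3 each), rank 18 of 18413 genes by mean over the 6 libraries. Its deposited length of 1002 bases, the shortest of the 9, enters that level directly. The sources used here do not state what part of the transcript that length covers. Ldha followed with 1739 ± 134 TPM in controls and 1669 ± 120 TPM with TRH, and Pkm with 1563 ± 75.7 and 1458 ± 92.4 TPM (SD, n = 3 each). The ranges of Ldha and Pkm over the 6 libraries overlapped, and Ldha was the higher of the pair in 5 of 6 libraries. Below them stood Eno1 with a mean of 857 TPM over all libraries, Pgk1 with 626 TPM and Tpi1 with 519 TPM (rank 292).

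The ranges of Pgk1 and Tpi1 overlapped, while Pgk1 was higher within each of the 6 libraries. A step down separated these enzymes from the genes of glucose entry and from the growth factor. Slc2a1 had 125 ± 13.8 TPM in controls and 107 ± 9.80 TPM with TRH, Vegfa 110 ± 19.3 and 79.3 ± 9.11 TPM, and Hk2 53.1 ± 7.80 and 42.4 ± 7.35 TPM (SD, n = 3 each). The order of the 9 means, from Gapdh through Ldha, Pkm, Eno1, Pgk1, Tpi1, Slc2a1 and Vegfa to Hk2, was clear of overlap between neighbours except for Ldha with Pkm, Pgk1 with Tpi1, and Slc2a1 with Vegfa. Near-identical processed copies of several glycolytic genes exist in rodent genomes, and the sources used here do not state how reads that fit more than one copy were counted, so the levels of these enzymes are uncertain to that extent.

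**Figure D1:**
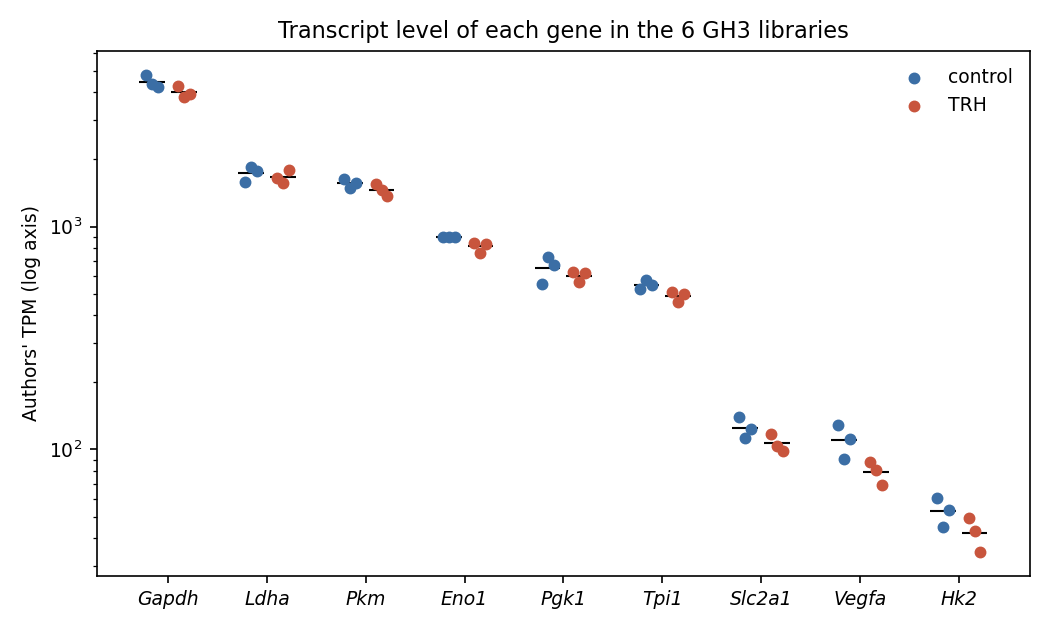
The authors' TPM of each gene (log axis) in the 3 control (blue) and 3 TRH (red) libraries of GH3 cells, with 1 point per library and a black line at the group mean. Gapdh stands highest at 3824 to 4803 TPM and Hk2 lowest at 34.7 to 60.6 TPM, while the points of Ldha and Pkm, of Pgk1 and Tpi1, and of Slc2a1 and Vegfa overlap in height.

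None of the 9 transcripts passed the threshold for a difference with TRH. edgeR's quasi-likelihood test with Benjamini-Hochberg adjustment called 0 of the 9 genes at an adjusted p under 0.05, as it called 0 of 14050 genes tested (0%). At an unadjusted p under 0.05, 1 of the 9 genes was lower with TRH, against 6.95% of all genes tested, and 0 were higher, against 2.04%. As an alternative, DESeq2's Wald test called 0 of the 9 and 0.993% of the genes to which it gave an adjusted p. Because these are bulk libraries scaled to one total, fewer cells expressing a gene and less RNA per cell cannot be told apart.

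Vegfa, the growth factor for blood vessels, was the gene with an unadjusted p under 0.05. Its level, in CPM (counts scaled to the TMM-adjusted library size), was 269.6, 205 and 237 in control replicates 1 to 3 and 191, 176 and 169 in TRH replicates 1 to 3. The control and TRH libraries did not overlap, the lowest control lying above the highest TRH library. Of all genes tested, 10.2% were likewise lower with TRH without overlap, and Vegfa was the 1 of the 9 genes to be so; 0 of the 9 were higher without overlap, against 6.8% of all genes. The estimated log2 fold change was -0.41 (SE 0.12; interval at 95%, -0.67 to -0.14), with an unadjusted p of 0.00731 and an adjusted p of 0.397 in edgeR's quasi-likelihood test, or 0.753 times the control level. By size of p Vegfa ranked 257 of 14050, and DESeq2's adjusted p was 0.135.

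Control replicate 1, the library with the highest long-gene values, was also the highest for Vegfa, a gene of 3546 deposited bases. Without that library the log2 fold change of Vegfa was -0.31, with an edgeR adjusted p of 0.795. Leaving out TRH replicate 3 as well gave -0.27, with an edgeR adjusted p of 0.659. With offsets that remove each library's trend with gene length, edgeR gave -0.32 (SE 0.088, adjusted p = 0.399). Vegfa was again the 1 of the 9 genes with an unadjusted p under 0.05 in that fit, in which 5.67% of all genes tested were lower at an unadjusted p under 0.05. In other alternatives Vegfa was not alone: among the 16, the unadjusted p was under 0.05 in 2 for Hk2, 1 for Tpi1 and 1 for Pgk1. Over 16 alternative settings the unadjusted p of Vegfa ran from 0.00212 to 0.0291 and its adjusted p from 0.135 to 0.795, outside the threshold in each. Its log2 fold change ran from -0.50 to -0.27; with groups that do not overlap, leaving out a library can hardly turn the sign.

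Hk2, which commits glucose to the cell by phosphorylation, read 194, 156 and 174 CPM in controls and 165, 143 and 129.9 CPM with TRH, replicates 1 to 3 in each group. Its groups overlapped, since control replicate 2 lay below TRH replicate 1. The estimated log2 fold change was -0.26 (SE 0.12; interval at 95%, -0.54 to 0.021; edgeR adjusted p = 0.566). Hk2 is the longest of the 9 at 5432 bases, and its value moved most with length: it was -0.11 with length offsets and -0.10 without control replicate 1 and TRH replicate 3, which were its highest and lowest library. Its unadjusted p in edgeR's fit was 0.0338 without control replicate 2, and 0.0295 without TRH replicate 1, with a log2 fold change of -0.34 in both.

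Slc2a1, the glucose transporter, read 213, 186 and 191 CPM in controls and 188, 164 and 176 CPM with TRH. TRH replicate 1 lay above control replicate 2, so the groups overlapped. Its estimated log2 fold change was -0.16 (SE 0.095; interval at 95%, -0.38 to 0.057, edgeR adjusted p = 0.623), and -0.10 without control replicate 1. In this fit the entry steps had the next largest estimates after Vegfa, with intervals that include no difference. DESeq2's Wald test kept that order (-0.25 for Hk2 and -0.15 for Slc2a1, against -0.084 for Tpi1), as did several other alternatives. The order did not hold with length offsets, or without control replicate 1, TRH replicate 3 or both. With length offsets Gapdh (-0.15) and Tpi1 (-0.13) lay further from 0 than Slc2a1 and Hk2 (both -0.11). The Gapdh value in that fit rests on its deposited length of 1002 bases.

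**Figure D2:**
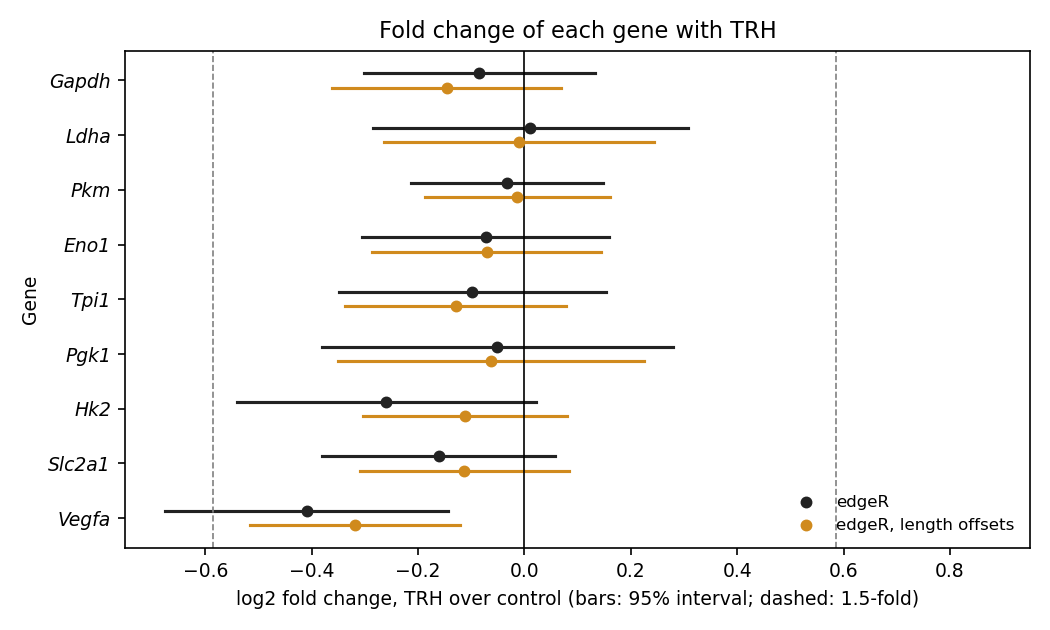
Fitted log2 fold change of each gene, TRH over control, from edgeR (black) and from edgeR with offsets for gene length (orange), with 95% intervals as bars and dashed lines at a fold of 1.5 in either direction. Vegfa alone has intervals that leave out 0 (-0.67 to -0.14 without offsets), and the Hk2 estimate moves from -0.26 to -0.11 with offsets.

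Among the enzymes from Tpi1 to Pkm, the fitted differences were small and their intervals excluded a 1.5-fold change. Gapdh, often used as a reference transcript, read 2834, 2778 and 2532 CPM in controls and 2621, 2343 and 2714 CPM with TRH, and the highest TRH library exceeded the lowest control. Its estimated log2 fold change was -0.08 (SE 0.094; interval at 95%, -0.30 to 0.13, edgeR adjusted p = 0.763). Pkm, which makes pyruvate and ATP in the last step, varied least of the 9 in CPM. It read 2061, 2026 and 2013 CPM in controls and 2042, 1906 and 2012 CPM with TRH, with a log2 fold change of -0.03 (SE 0.079, 95% interval -0.21 to 0.15, edgeR adjusted p = 0.893).

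Its coefficient of variation was 1.20% among controls and 3.61% among TRH libraries, against 17.9% and 10.5% for Pgk1. In TPM this differed: controls read 899 ± 1.84 TPM for Eno1 against 1563 ± 75.7 TPM for Pkm (SD, n = 3 each). Pgk1, the first ATP-forming enzyme of the pathway, read 549, 789 and 681 CPM in controls and 649, 582 and 719 CPM with TRH. The controls alone spanned the whole TRH range, and the estimated log2 fold change was -0.05 (SE 0.14; interval at 95%, -0.38 to 0.28, edgeR adjusted p = 0.914). Tpi1, which interconverts the triose phosphates, read 446, 533 and 472 CPM in controls and 453, 406 and 497 CPM with TRH (log2 fold change -0.10, SE 0.11, edgeR adjusted p = 0.764). Eno1, the enolase, read 999.7, 1087 and 1018 CPM in controls and 982, 879 and 1090 CPM with TRH (log2 fold change -0.07, SE 0.10, edgeR adjusted p = 0.808). For both enzymes TRH replicate 2 was the lowest library and another TRH library was among the highest, so the treatment groups interleaved. Without control replicate 1 and TRH replicate 3 these estimates were further from 0, at -0.26 for Pgk1, -0.23 for Tpi1 and -0.18 for Eno1 (edgeR adjusted p = 0.677, 0.702 and 0.72), and -0.10 for Gapdh. In that fit the unadjusted p was 0.0325 for Pgk1 and 0.0433 for Tpi1, and Pgk1, Tpi1, Ldha and Eno1 lay further from 0 than Hk2 and Slc2a1 (both -0.10).

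Ldha, the lactate-forming enzyme, was the 1 gene of the 9 with a positive estimate. It read 1498, 1887 and 1704 CPM in controls and 1619, 1529 and 1982 CPM with TRH, and its lowest library was a control and its highest a TRH library. The estimated log2 fold change was 0.01 (SE 0.13; interval at 95%, -0.29 to 0.31, edgeR adjusted p = 0.985), and it turned negative in 6 of 16 alternatives. Without control replicate 1 and TRH replicate 3 it was -0.19 (edgeR adjusted p = 0.705).

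The 95% interval lay within 1.5-fold in either direction for 8 of the 9 genes, the exception being Vegfa, and within 2-fold for 9 of 9. Over all genes tested the shares were 54.6% and 82%. All 9 genes belong to the most abundant of 5 equal abundance groups, in which 84.2% of genes had an interval within 1.5-fold. Counting error was small beside the spread between libraries: the lowest count of any of the 9 genes, 5775 for Hk2, carries a counting error of 1.32%, while Hk2 varied by 10.8% among controls and 12.2% among TRH libraries.

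Of the 9 log2 fold changes 8 were negative, against 50.7% of all genes tested and 38.1% of the most abundant group. The median of the 9 was -0.08, against -0.0040 for all genes tested and 0.048 for the most abundant group. The genes share their libraries. In TRH replicate 2 all 9 genes lay below their mean over the 6 libraries, where 46.2% of all genes tested did. It was the lowest library for Gapdh, Pkm, Eno1, Tpi1 and Slc2a1. Without it 6 of the 9 estimates were negative and the median was -0.025. In TRH replicate 1, 6 of the 9 lay below their mean (47.3% of all genes tested), and in TRH replicate 3 only 3 did (52.1%). Of the most abundant group, 37.2%, 44% and 42.9% lay below their mean in TRH replicates 1 to 3.

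Eno1 and Tpi1 looked different on another scale. On log2(TPM + 1), which has no TMM step, 9 of 9 estimates were negative, against 62.4% of all genes tested, and the median was -0.15 against -0.06 for all genes. The groups of both enzymes overlapped in CPM and did not overlap in TPM. Eno1 had 898, 901 and 899 TPM in controls and 844, 761 and 837 TPM with TRH, and Tpi1 had 524, 578 and 545 TPM in controls and 509.6, 459 and 499.7 TPM with TRH. Together with Vegfa, 3 of the 9 genes were lower without overlap on that scale, against 11.9% of all genes tested. limma on log2(TPM + 1) gave adjusted p = 0.643 for Eno1, 0.615 for Tpi1 and 0.536 for Vegfa, none past the threshold.

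**Figure D3:**
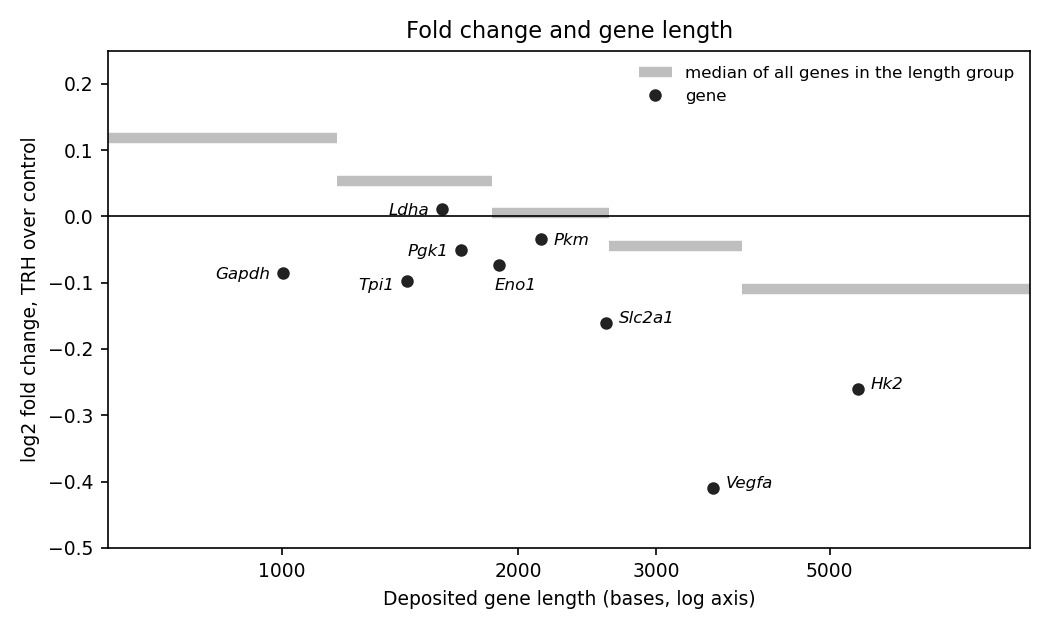
Fitted log2 fold change, TRH over control, against deposited gene length (log axis) for the 9 genes (points), with grey bars at the median of all genes tested in each of 5 length groups of 2810 genes (the shortest and longest groups run beyond the axis). The medians step down from 0.12 to -0.11 with length, and the 9 points lie under the bar of their own group.

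Gene length moved with the fold changes of these libraries, and its part in the values of the 9 genes was not tested beyond the offsets above. Across all genes the median log2 fold change was 0.12 in the shortest length group and -0.11 in the longest, and each of the 9 genes lay below the median of its own group. The log2 fold change minus the group's median was -0.37 for Vegfa and -0.20 for Gapdh, which is in the shortest group. It was -0.15 for Hk2, in the longest group, and nearest to 0 for Ldha (-0.042) and Pkm (-0.038). Gapdh is placed in the shortest group by its deposited length of 1002 bases, and what that length covers is not stated. A median divides its group evenly, and the 9 genes were measured in the same libraries, so these are not 9 separate observations.

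Across libraries 7 of the 9 genes formed 2 patterns, described here from values already seen and with no test. Ldha, Pgk1, Tpi1 and Eno1 were above their own means in control replicate 2 and TRH replicate 3 and below them in control replicate 1 and TRH replicate 2, Tpi1 and Eno1 only slightly in control replicate 1. Over the 6 libraries Pearson's r of log2 CPM was 0.746 to 0.949 for the 6 pairs among these enzymes, the highest being Tpi1 with Eno1. Hk2, Slc2a1 and Vegfa were highest in control replicate 1, and their 3 pairs had r of 0.877 to 0.935. Between the enzymes and those genes r ran from -0.597 (Ldha with Hk2) to 0.332 over 12 pairs. On log2 CPM, Gapdh and Pkm belonged to neither pattern alone. Both were highest in control replicate 1, Gapdh had r of 0.778 with Eno1 and 0.711 with Slc2a1, and Pkm 0.677 with Eno1 and 0.844 with Slc2a1. The 15 pairs with Gapdh or Pkm ran from 0.175 to 0.873. The points share their library, its depth and its trend with gene length. Control and TRH libraries were pooled, so any difference between the groups is part of each r.

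With the length trend removed from each library, the separation between the patterns narrowed. The 12 pairs between them then ran from -0.089 to 0.725, and Tpi1 with Hk2 went from -0.137 to 0.725. The pairs within each pattern stayed high, at 0.736 to 0.936 for Ldha, Pgk1, Tpi1 and Eno1 and 0.780 to 0.967 for Hk2, Slc2a1 and Vegfa. Gapdh with Slc2a1 went from 0.711 to 0.947, and Gapdh had r of 0.878 with Hk2 and 0.835 with Vegfa. With the enzymes of the other pattern Gapdh had lower values: -0.112 (Ldha), -0.172 (Pgk1), 0.449 (Tpi1) and 0.426 (Eno1). On this scale Gapdh thus went with Hk2, Slc2a1 and Vegfa. That placing rests on the deposited Gapdh length of 1002 bases, and what that length covers is not stated. Set against the mean of the other 8 genes on this scale, Tpi1 had r = 0.935, a value reached by 0.399% of the 14041 genes outside the 9, and Eno1 r = 0.904, reached by 0.855%. Next came Hk2 (r = 0.850, 1.74%), Pkm (r = 0.795, 3.09%) and Slc2a1 (r = 0.784, 3.13%). Pgk1 (r = 0.425) and Ldha (r = 0.489) followed the rest less closely, with 22.6% and 17.6% of other genes as high. Vegfa (r = 0.494, 15.4%) and Gapdh (r = 0.569, 11.3%) lay near them. On log2 CPM without that correction the order differed: Pkm (r = 0.849, reached by 1.38%) and Gapdh (r = 0.791, 2.39%) were closest to the rest, followed by Eno1 (r = 0.770, 3.36%), and Tpi1 had r = 0.698 (5.84%) and Hk2 r = 0.268 (26.2%).

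**Figure D4:**
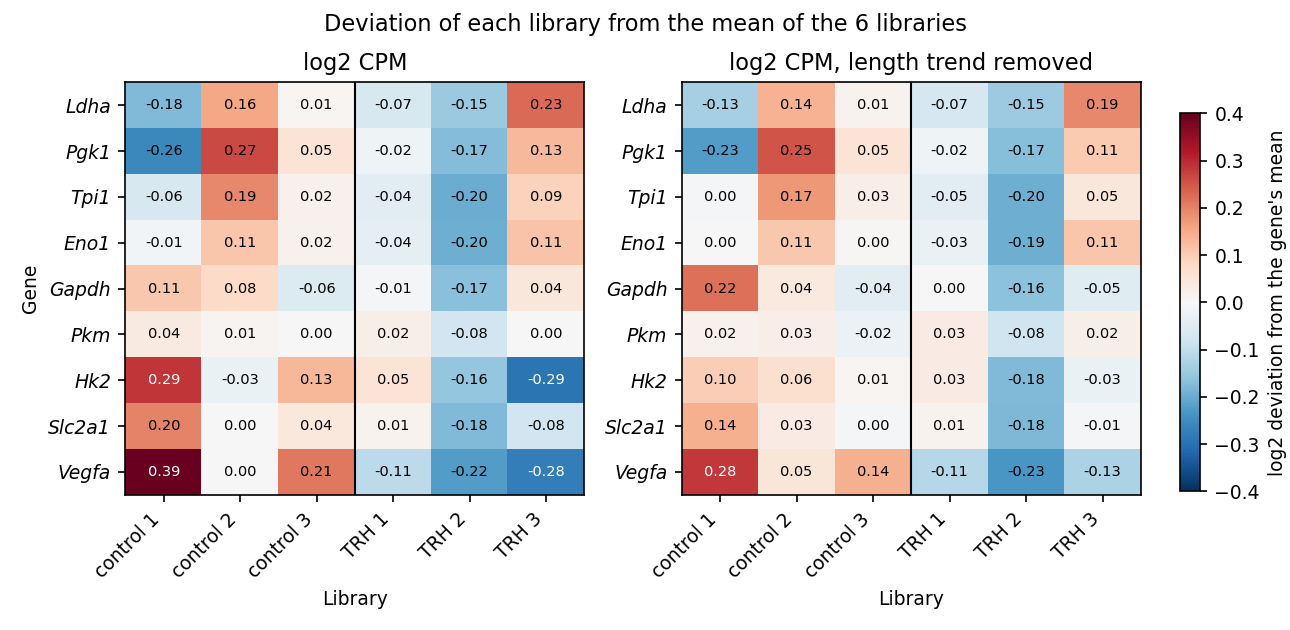
Log2 deviation of each library (columns, 3 control and 3 TRH) from the mean of the 6 libraries for each gene (rows), as log2 CPM on the left and with each library's trend with gene length removed on the right; red is above and blue below the mean. Vegfa runs from 0.39 in control replicate 1 to -0.28 in TRH replicate 3 on the left, and TRH replicate 2 is below the mean for all 9 genes in both panels.

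Because these genes are known as targets of hypoxia-inducible factors, the sequence just before their start sites was searched for the core letters those factors bind, ACGTG and GCGTG, on both strands. RefSeq promoter windows (assembly GRCr8, matched by symbol) covered 8 of the 9 genes in 10 windows, and the 250 bases before each start were read. Pgk1 had no window and was not searched. ACGTG was in 16.6% and GCGTG in 25.9% of all 33469 windows, and either in 36.7%. Of the 10 windows 5 held a match: those of Gapdh, Ldha and Slc2a1 and both of Eno1. The median GC content was 51.2% over all windows, and the 10 windows ran from 49.6% (Hk2) to 69.2% (the second of Eno1). The share over all windows is not matched for GC content. The windows of Pkm, Tpi1, Hk2 and Vegfa held none, which says only that these letters are absent from this stretch. The windows of Ldha (chr1:106507842-106508091, plus strand), Slc2a1 (chr5:138002272-138002521, plus strand) and Vegfa (chr9:22452604-22452853, plus strand, the first of its 2 windows) are shown because they stand for the 2 patterns across libraries (Ldha and Slc2a1) and for the gene with the smallest p of the 9. They are printed 5′ to 3′ with matches in capitals.
Ldha: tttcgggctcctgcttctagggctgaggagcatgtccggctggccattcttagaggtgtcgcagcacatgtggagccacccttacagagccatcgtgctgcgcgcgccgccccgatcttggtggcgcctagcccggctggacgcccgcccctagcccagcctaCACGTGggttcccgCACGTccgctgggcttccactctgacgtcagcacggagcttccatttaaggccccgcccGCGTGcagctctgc
Slc2a1: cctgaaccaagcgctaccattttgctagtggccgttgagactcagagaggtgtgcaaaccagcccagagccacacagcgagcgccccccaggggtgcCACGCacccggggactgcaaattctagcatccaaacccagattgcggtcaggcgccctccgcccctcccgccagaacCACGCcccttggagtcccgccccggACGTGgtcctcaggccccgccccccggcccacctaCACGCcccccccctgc
Vegfa: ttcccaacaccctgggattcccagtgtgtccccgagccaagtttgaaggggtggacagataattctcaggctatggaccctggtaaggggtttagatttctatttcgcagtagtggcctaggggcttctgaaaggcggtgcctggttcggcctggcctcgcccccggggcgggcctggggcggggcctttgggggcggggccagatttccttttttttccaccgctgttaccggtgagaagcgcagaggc

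In the Ldha window the match nearest the start begins 14 bases before it, and a pair of matches on opposite strands overlaps in 1 palindrome that begins 87 bases before it. The Slc2a1 window holds 4 matches, beginning 153, 76, 51 and 16 bases before the start. Holding a match did not go with one pattern across libraries, since Ldha and Eno1 had one and Tpi1 did not, and Slc2a1 had one and Hk2 and Vegfa did not. Pgk1, of the same pattern as Ldha, could not be read. The matches are a description of letters, and factor binding was not measured.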

How the data were processed

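Raw counts for each Ensembl gene were deposited by the authors in 1 table, and again in another beside gene length, FPKM and TPM. HISAT2 and bedtools are named, per the submitters' processing notes, and the sources used here state no version, genome build, annotation, strand setting or counting rule. The authors' FPKM and TPM were recomputed from the counts and lengths to rounding error.

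Counts were tested with edgeR 4.0.16 (R 4.3.3): TMM, filterByExpr, quasi-likelihood F-test, Benjamini-Hochberg adjustment over the 14050 genes kept (all 9 genes passed the filter), threshold 0.05, 3 libraries against 3 with no block. Intervals are 95%. Alternatives used DESeq2 1.42.0, limma 3.58.1 (voom, and log2(TPM + 1) or log2(TPM + 0.1)), DESeq2 size factors, other filters, offsets for gene length (loess, span 0.5) and left-out libraries. Fits were tested on simulated counts. Replicates of a group differed by more than sampling noise (chi-square over its degrees of freedom, 13.7 to 110).

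The 9 genes, the alternatives and the lists were chosen with earlier results of these data known. All 9 genes were to be reported. A wider glycolysis list, pituitary markers and genes of similar pattern, chosen by symbol, are not analysed here, because the RefSeq table used here (GRCr8) holds an Ensembl identifier in 0 of 47357 rows.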

Additional observations from a re-analysis of the deposited data

How the results depend on the processing

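Over the whole table edgeR called 0 genes and put 1263 under an unadjusted p of 0.05. The calls were 119 with DESeq2's Wald test, 0 to 1 with single libraries left out (1 without TRH replicate 3) and 1 without control replicate 1 and TRH replicate 3 together; the other alternatives gave 0. The 1263 became 769 without control replicate 1 and at most 1786 with other single libraries left out. The median log2 fold change of the 9 genes, -0.08, was -0.15 on log2(TPM + 1) and on log2(TPM + 0.1), -0.18 without control replicate 1 and TRH replicate 3, and -0.16 to -0.025 with single libraries left out. Ldha (0.01) was -0.059 on both TPM scales, -0.011 after the length correction, -0.19 without control replicate 1 and TRH replicate 3, and -0.12 to 0.095 with single libraries left out. Eno1 ran from -0.16 to 0.0020 and Pgk1 from -0.18 to 0.079 with single libraries left out. The cause was not tested. With single libraries left out Gapdh ran from -0.14 to -0.025 and Tpi1 from -0.18 to -0.023 (nearest 0 without TRH replicate 2 for Gapdh and without control replicate 2 for Tpi1), Pkm from -0.051 to -0.0039 (without TRH replicate 2), Hk2 from -0.34 to -0.18, Slc2a1 from -0.20 to -0.0998 and Vegfa from -0.50 to -0.31 (these 3 nearest 0 without control replicate 1). These 6 genes kept a negative sign in 16 of 16 alternatives, and 0 of the 9 had an adjusted p under 0.05 in any. Counting error was at most 1.32% of a count.

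A replicate block, with the replicate number as its levels, was tried: 0 genes were called, and Vegfa had a log2 fold change of -0.40 (edgeR adjusted p = 0.561). Equal numbers are not tied to a shared culture in the labels, and the deviations of equal-numbered libraries correlated at 0.295, -0.256 and -0.125 for numbers 1 to 3.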
